A study of Mus musculus with 11 samples.

Results

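RNA levels of 10 Kruppel-like transcription factor genes (Klf2, Klf3, Klf4, Klf5, Klf6, Klf7, Klf9, Klf10, Klf11 and Klf15) were followed in 266-6 cells, a line of mouse pancreatic acinar cells. The genes were taken by their symbols from the 23284 genes listed in the count tables, and all 10 were among the 13343 with enough reads to be tested. The cells were transfected with a non-targeting control siRNA or with siRNAs against Arid1a (25 nM), and the knockdown ran for 48 h. After a night in medium without serum they received EGF (40 ng/ml) or its vehicle, 0.1% BSA, for 8 h. The libraries number 11, in the groups control siRNA with vehicle (siCtrl, n = 2), control siRNA with EGF (siCtrl_EGF, n = 3), Arid1a siRNAs with vehicle (siArid1a, n = 3) and Arid1a siRNAs with EGF (siArid1a_EGF, n = 3). Every group is the same transfected and serum-starved line, so there is no group of untransfected or fed cells. The labels leave unsaid whether the replicates of a group were separate cultures. The p-values therefore refer to the variation among these libraries alone, part or all of which may be technical.

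Kruppel-like factors bind GC-rich and CACCC-type DNA through zinc fingers at their C-terminal end, and the rest of the protein decides whether a target gene is activated or repressed. KLF2, KLF4, KLF5, KLF6 and KLF7 are known mainly as activators that can recruit acetyltransferases, KLF3 as a repressor that binds the corepressor CtBP, and KLF9, KLF10 and KLF11 as repressors that bind SIN3A, while KLF15 is best known from metabolic and glucocorticoid responses. In the pancreas KLF4 and KLF5 have been studied in the change of acinar cells into duct-like cells. EGF is a ligand of the receptor EGFR, which acts through the RAS to ERK pathway, and Arid1a encodes a subunit of the BAF chromatin remodelling complex.

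The DNA in front of the start site is shown for Klf4, Klf2 and Klf11, the members with a promoter in the RefSeq table whose RNA differed most between siCtrl_EGF and siCtrl. Promoters were matched by symbol for 8 of the 10 members, and those of Klf5 and Klf10 were not matched. Each line gives the 250 bases before the start, read in the direction of the gene, on build GRCm38.p6, with capitals for every motif match.
Klf4 (chr4:55532476-55532725, minus strand): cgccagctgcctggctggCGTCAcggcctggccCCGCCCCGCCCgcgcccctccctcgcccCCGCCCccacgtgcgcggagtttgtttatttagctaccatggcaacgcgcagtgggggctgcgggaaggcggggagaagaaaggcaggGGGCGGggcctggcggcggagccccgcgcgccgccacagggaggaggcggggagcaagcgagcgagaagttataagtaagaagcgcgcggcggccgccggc
Klf2 (chr8:72318812-72319061, plus strand): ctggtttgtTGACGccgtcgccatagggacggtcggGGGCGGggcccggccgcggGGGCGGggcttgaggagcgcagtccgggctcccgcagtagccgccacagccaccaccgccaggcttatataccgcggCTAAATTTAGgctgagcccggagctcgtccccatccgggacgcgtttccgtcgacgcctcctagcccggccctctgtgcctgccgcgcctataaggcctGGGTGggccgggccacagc
Klf11 (chr12:24651121-24651370, plus strand): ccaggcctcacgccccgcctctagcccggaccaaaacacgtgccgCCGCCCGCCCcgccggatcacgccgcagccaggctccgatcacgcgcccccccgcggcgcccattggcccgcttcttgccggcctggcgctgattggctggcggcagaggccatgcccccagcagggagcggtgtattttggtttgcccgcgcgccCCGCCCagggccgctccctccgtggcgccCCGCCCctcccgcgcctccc
The motifs, searched on both strands, were the KLF box CACCC, the SP box GGGCGG, an AP-1 site TGANTCA, a CRE core TGACG, an ETS site CCGGAAG, and the CArG box and MEF2 site by name. Matches that overlap were counted separately and run together in the capitals. The Klf4 promoter held 4 SP boxes and 1 CRE core. That of Klf2 held 2 SP boxes, 1 KLF box, 1 CRE core and 1 MEF2 site, which ended 109 bases before the start. Klf11 had 4 SP boxes and no other match. Over the 8 matched members an SP box was found in 7 promoters, a KLF box in 5, a CRE core in 4, and an AP-1 site in 1 (Klf9, where it overlaps the KLF box), and neither a CArG box nor an ETS site was found in any. Among 32851 promoters of the same length, 32.7% held an SP box, 52.0% a KLF box, 17.8% a CRE core, 6.75% an AP-1 site, 2.92% a MEF2 site, 1.47% a CArG box and 6.91% an ETS site. The members' promoters were 59.2% to 78.4% G and C, above the median of 52.4% over all promoters, and GC content bears directly on the number of SP boxes. A match describes the letters of these windows and not the binding of a factor.

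Counted reads per library lay between 10279763 and 19773007. Arid1a RNA lay at 292 and 399.9 CPM (counts scaled to library size with TMM factors) in siCtrl, at 263 to 308 CPM in siCtrl_EGF, at 127 to 157 CPM in siArid1a and at 122 to 152 CPM in siArid1a_EGF, so that the knockdown was partial in every library. Of 15 acinar marker genes, 14 had a mean of at least 1 CPM over the 11 libraries and Amy2a5 was at 0 in all. Prss1 was at 0.512 CPM in its lowest library. The summed levels of the 15 were 17195 to 19230, 14977 to 16219, 17482 to 20916 and 16234 to 18015 CPM in siCtrl, siCtrl_EGF, siArid1a and siArid1a_EGF. The 7 ductal markers, most of whose reads came from Sox9, summed to 57.2 to 79.4, 118 to 130, 55.8 to 60.6 and 79.0 to 87.0 CPM in the same order, and were higher with EGF after either siRNA. The 7 islet markers did so too, at 702 to 752, 1115 to 1159.7, 626 to 768 and 795 to 840.3 CPM, nearly all of it from Chga (626 to 1158 CPM), while Ins1, Ins2 and Sst were at 0 in all libraries. The 9 fibroblast and stellate markers summed to 283 to 337 CPM, mostly from Pdgfrb (269 to 321 CPM), with Lum at 0 throughout. The 7 endothelial markers summed to 38.9 to 55.7 CPM, mostly from Tek (37.0 to 52.3 CPM), with Cdh5 at 0 throughout. Among immune markers Cd68 lay at 4.96 to 9.23 CPM and Cd3e at 0. The part of these marker levels in the members' changes was not tested. In bulk RNA, fewer cells with a transcript and less of it per cell cannot be told apart.

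Klf10, a gene first found as an early response to TGF-beta, had the highest level per transcript length of the 10 in every group. It stood at 17.1 ± 0.824 FPKM (fragments scaled to transcript length and library size, SD, n = 3) in siCtrl_EGF, 17.0 ± 0.323 FPKM in siArid1a and 18.2 ± 0.540 FPKM in siArid1a_EGF. For siCtrl no FPKM column could be used, and the CPM were divided by the ratio of CPM to FPKM that each gene had in the other groups, which gave Klf10 14.7 ± 0.396 on that per-length scale (n = 2). Klf3 came next in all groups, at 12.2 to 14.0 FPKM in the 3 groups with FPKM values and 13.1 per length in siCtrl, where its range overlapped that of Klf10.

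The lower part of the order changed between groups. In siCtrl the order after Klf3 was Klf15 (10.6 per length), Klf2 (5.90), Klf4 (3.47), Klf5 (3.25), Klf11 (3.16), Klf9 (3.06), Klf6 (2.47) and Klf7 (2.19), and neighbours from Klf4 to Klf9 overlapped between libraries. With EGF after control siRNA, Klf4 followed Klf3 at 12.0 ± 1.48 FPKM, where their libraries overlapped, and Klf5 was last at 1.68 ± 0.0711 FPKM. In siArid1a, Klf2 (4.93 ± 0.719 FPKM), Klf4 (4.81 ± 0.183 FPKM) and Klf11 (4.78 ± 0.145 FPKM) lay together with overlapping libraries. In siArid1a_EGF, Klf15 (9.37 FPKM), Klf4 (8.08 FPKM), Klf2 (6.46 FPKM) and Klf6 (3.82 FPKM) followed Klf3 with no overlap between neighbours, and Klf5 was last at 1.09 ± 0.619 FPKM.

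**Figure D1:**
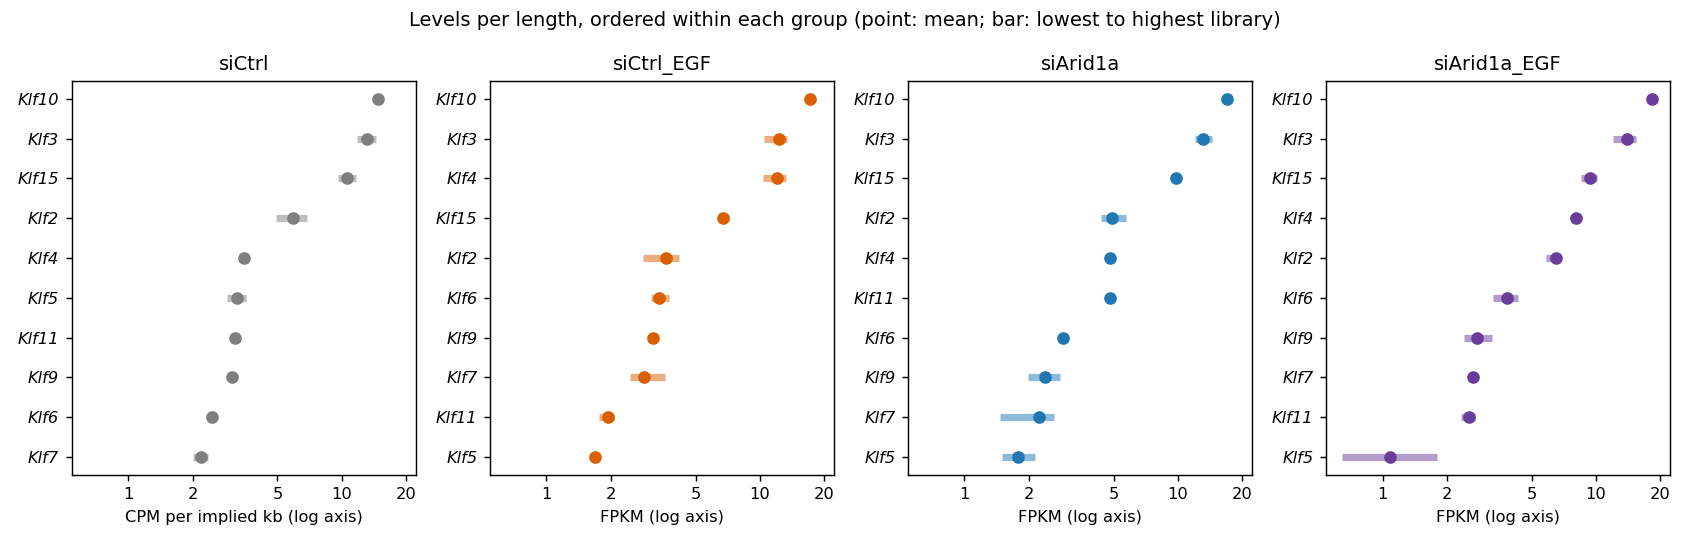
Levels of the 10 genes per transcript length on a log axis (FPKM in 3 groups, CPM divided by each gene's CPM-to-FPKM ratio in siCtrl), ordered within each group, with points for means and bars from the lowest to the highest library. Klf10 and Klf3 lead in all 4 groups, and Klf4 moves from 3.47 in siCtrl to 12.0 FPKM in siCtrl_EGF.

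EGF with control siRNA changed the RNA of 7 of the 10 genes. Klf4 rose 3.44-fold, and Klf6 and Klf10 rose 1.37-fold and 1.16-fold. Klf5, Klf2, Klf11 and Klf15 fell 1.91-fold, 1.63-fold, 1.60-fold and 1.58-fold. edgeR's quasi-likelihood test, with adjustment over all 13343 genes, called 35.6% of all genes here, 16.8% higher and 18.8% lower, beside 3 members higher, 4 lower and 3 not passing. The libraries of the 2 groups did not overlap for 8 of the 10 members, against 55.5% of all genes. The members' median log2 change was -0.02, near the -0.03 of all genes, but their median absolute log2 change was 0.56 against 0.22. The 10 genes were chosen with earlier results of these data known, so neither these contrasts with all genes nor those below test the family. Calls that rested on 1 library were those of Klf2 (log2 -0.43, edgeR adjusted p = 0.148, without siCtrl replicate 1), Klf5 (-0.79, 0.0619, without siCtrl replicate 2), Klf6 (0.42, 0.0621, without siCtrl replicate 2, and 0.36, 0.0573, without siCtrl_EGF replicate 2) and Klf10 (0.18, 0.144, without siCtrl replicate 1, and 0.18, 0.0844, without siCtrl_EGF replicate 1).

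The Arid1a siRNAs without EGF changed 4 of the 10 genes. Klf11, Klf4 and Klf10 rose 1.51-fold, 1.38-fold and 1.15-fold, and Klf5 fell 1.81-fold. With 3 members higher and 1 lower, the members' share was close to that of all genes, of which 38.9% were called, 18.8% higher and 20.1% lower. The libraries were apart for 6 of the 10 members, against 54.7% of all genes. The median log2 change was 0.02 for the members and -0.01 for all genes. This comparison has the same siCtrl libraries as the one above, so their estimates share error. Without siCtrl replicate 1 the calls of Klf4 (log2 0.41, edgeR adjusted p = 0.0646) and Klf10 (0.18, 0.142) were lost, without siCtrl replicate 2 those of Klf5 (-0.71, 0.0887) and Klf10 (0.23, 0.0536), without siArid1a replicate 1 that of Klf5 (-0.75, 0.0688), and without siArid1a replicate 2 those of Klf5 (-0.81, 0.0645) and Klf10 (0.20, 0.0671), while that of Klf9 was gained (-0.49, 0.0343).

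In cells given EGF, the Arid1a siRNAs changed 4 genes, and Klf4 now differed in the other direction. Klf2, Klf15 and Klf11 were 1.76-fold, 1.40-fold and 1.29-fold higher than in siCtrl_EGF, and Klf4 was 1.47-fold lower. The test called 46.9% of all genes, 23.7% higher and 23.2% lower, so that 3 members higher and 1 lower is again near the share of all genes. The libraries were apart for 4 of the 10 members, against 57.6% of all genes. The members' median log2 change was 0.14 and that of all genes 0.00. Deviations from group means correlated weakly between same-numbered libraries of these groups (0.14, 0.30 and 0.13). In an unplanned fit with the replicate number as a block over these 2 groups alone, edgeR also called Klf3 (log2 0.19, adjusted p = 0.0103) and Klf5 (-0.61, adjusted p = 0.0126), for 6 members in all. That pairing was read from these same data, and some differently numbered libraries of other pairs of groups correlated more, up to 0.381. The main count stays at 4. Klf5 was also called without siArid1a_EGF replicate 1 (log2 -1.18, edgeR adjusted p = 0.00245).

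EGF after the Arid1a siRNAs changed 3 genes. Klf4 and Klf6 rose 1.70-fold and 1.33-fold, and Klf11 fell 1.88-fold. The share of all genes called was 23.4%, with 13% higher and 10.4% lower, beside 2 members higher and 1 lower. The libraries were apart for 5 of the 10 members, against 38.7% of all genes. The median log2 change was 0.16 for the members and -0.01 for all genes. The call of Klf6 was lost without siArid1a replicate 2 (log2 0.41, edgeR adjusted p = 0.0576) and without siArid1a_EGF replicate 1 (0.32, 0.0969), and without the latter Klf5 was called (-1.26, 0.00432). Klf2 was called in a fit of only these 2 groups (log2 0.41, edgeR adjusted p = 0.0422). This comparison shares the siArid1a_EGF libraries with the one in EGF-treated cells and the siArid1a libraries with the one without EGF.

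**Figure D2:**
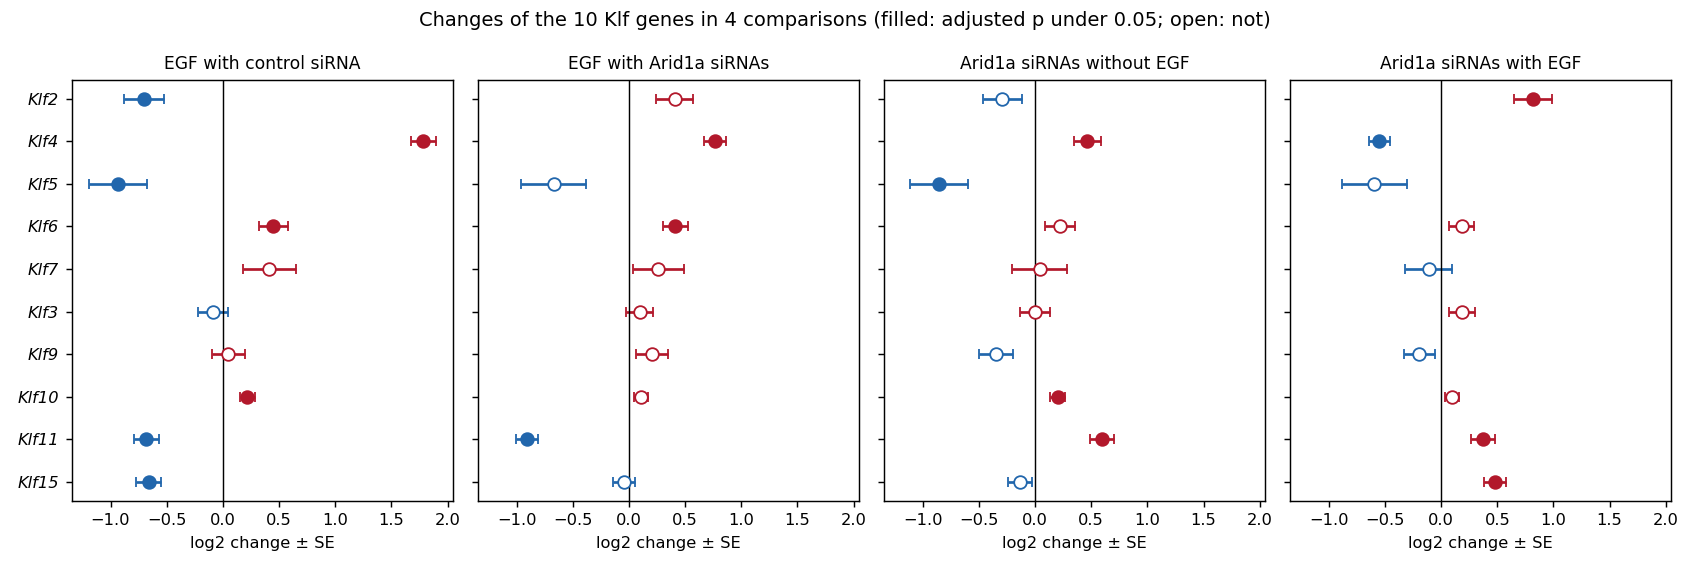
Log2 change of each gene with its standard error (horizontal axis) in the 4 comparisons between groups, with filled points for an edgeR adjusted p under 0.05 and colours for the direction. Klf4 and Klf11 have filled points in all 4 panels, and Klf3, Klf7 and Klf9 in none.

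The difference between the EGF responses, that is the log2 EGF response after Arid1a siRNAs minus that after control siRNA, passed the test for Klf2 and Klf4. The test called 0.944% of all genes (126), 0.562% positive and 0.382% negative, beside 1 member positive and 1 negative of 10. Log2 changes are given ± standard error from here on. For Klf4 the log2 EGF response was 1.78 ± 0.11 after control siRNA and 0.77 ± 0.10 after Arid1a siRNAs, a difference of -1.02 ± 0.15 with a 95% interval from -1.34 to -0.70 (edgeR adjusted p = 0.00559). That call held in all 17 alternative settings, with adjusted p-values up to 0.0314. For Klf2 the responses were -0.70 ± 0.18 and 0.41 ± 0.16, a difference of 1.11 ± 0.24 with an interval from 0.589 to 1.63 (edgeR adjusted p = 0.0464). The Klf2 difference kept its sign throughout but its call in only 6 of 17 settings, with adjusted p-values from 0.00991 to 0.224. It was lost without siCtrl replicate 1 (log2 0.84, edgeR adjusted p = 0.224), without siCtrl_EGF replicate 1 or 3 (1.14, 0.116, and 0.97, 0.121), without siArid1a replicate 1 or 2 (1.07, 0.132, and 1.01, 0.138), and without siArid1a_EGF replicate 1, 2 or 3 (1.07, 0.138, then 1.18, 0.0522, then 1.06, 0.125).

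Klf15 had a difference of 0.62 ± 0.15 with an interval from 0.306 to 0.926 (edgeR adjusted p = 0.0696), and it was called without siCtrl replicate 2 (log2 0.75, adjusted p = 0.0287) and with DESeq2 (0.60, adjusted p = 0.0447). The other 7 members had estimates from -0.23 ± 0.15 (Klf11) to 0.26 ± 0.40 (Klf5) and did not pass. Their intervals ran from -0.544 to 0.0927 for Klf11 and from -0.302 to 0.0858 for Klf10, but from -0.587 to 1.11 for Klf5 and from -0.844 to 0.544 for Klf7, the 2 members with the fewest reads.

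**Figure D3:**
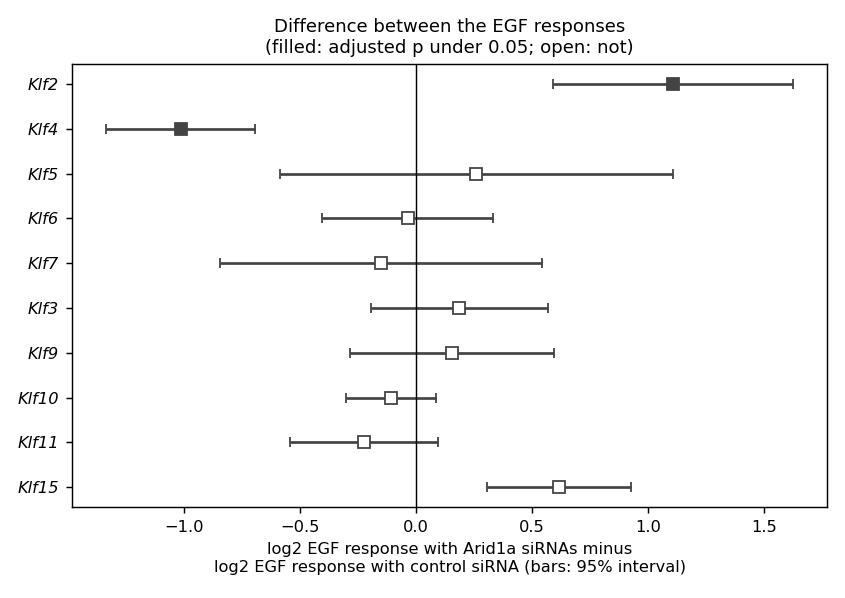
Difference between the log2 EGF response after Arid1a siRNAs and that after control siRNA for each gene, with 95% intervals and filled squares for an edgeR adjusted p under 0.05. Klf2 lies at 1.11 and Klf4 at -1.02, and the interval of Klf15 also lies above 0 although its adjusted p is 0.0696.

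Klf4, one of the factors used to reprogram cells and a growth-arrest gene of gut epithelium, had the largest response. It lay at 10.5 and 11.4 CPM in siCtrl, at 38.7, 32.7 and 41.7 CPM in siCtrl_EGF, at 15.7, 15.05 and 14.5 CPM in siArid1a, and at 25.8, 24.6 and 26.7 CPM in siArid1a_EGF. The 4 groups did not overlap: siCtrl was lowest, then siArid1a, siArid1a_EGF and siCtrl_EGF. Its log2 change with the Arid1a siRNAs was 0.47 ± 0.12 without EGF (edgeR adjusted p = 0.00653) and -0.55 ± 0.09 with EGF (adjusted p = 0.000193). Its log2 change with EGF was 1.78 ± 0.11 after control siRNA (adjusted p = 3.09e-08) and 0.77 ± 0.10 after Arid1a siRNAs (adjusted p = 7.01e-05).

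Klf2, closely related to Klf4 and known for its role in endothelium and resting lymphocytes, moved the other way with EGF. It lay at 12.2 and 8.81 CPM in siCtrl, at 6.81, 7.59 and 5.07 CPM in siCtrl_EGF, at 8.30, 7.80 and 10.2 CPM in siArid1a, and at 12.1, 10.5 and 12.1 CPM in siArid1a_EGF. The siCtrl_EGF libraries lay below all others, those of siArid1a_EGF lay above siArid1a, and the siCtrl pair overlapped both groups with Arid1a siRNAs. EGF lowered it after control siRNA (log2 -0.70 ± 0.18, edgeR adjusted p = 0.00702), and after Arid1a siRNAs the change was 0.41 ± 0.16 (adjusted p = 0.0874). Klf2 was 0.82 ± 0.17 higher on the log2 scale with the Arid1a siRNAs and EGF (adjusted p = 0.000980), and -0.29 ± 0.18 without EGF did not pass (adjusted p = 0.215). The 7 endothelial markers, nearly all of whose reads came from Tek, summed to 44.8 to 46.3, 38.9 to 46.9, 42.9 to 51.2 and 48.3 to 55.7 CPM in siCtrl, siCtrl_EGF, siArid1a and siArid1a_EGF, and their part in the change of Klf2 was not tested.

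**Figure D4:**
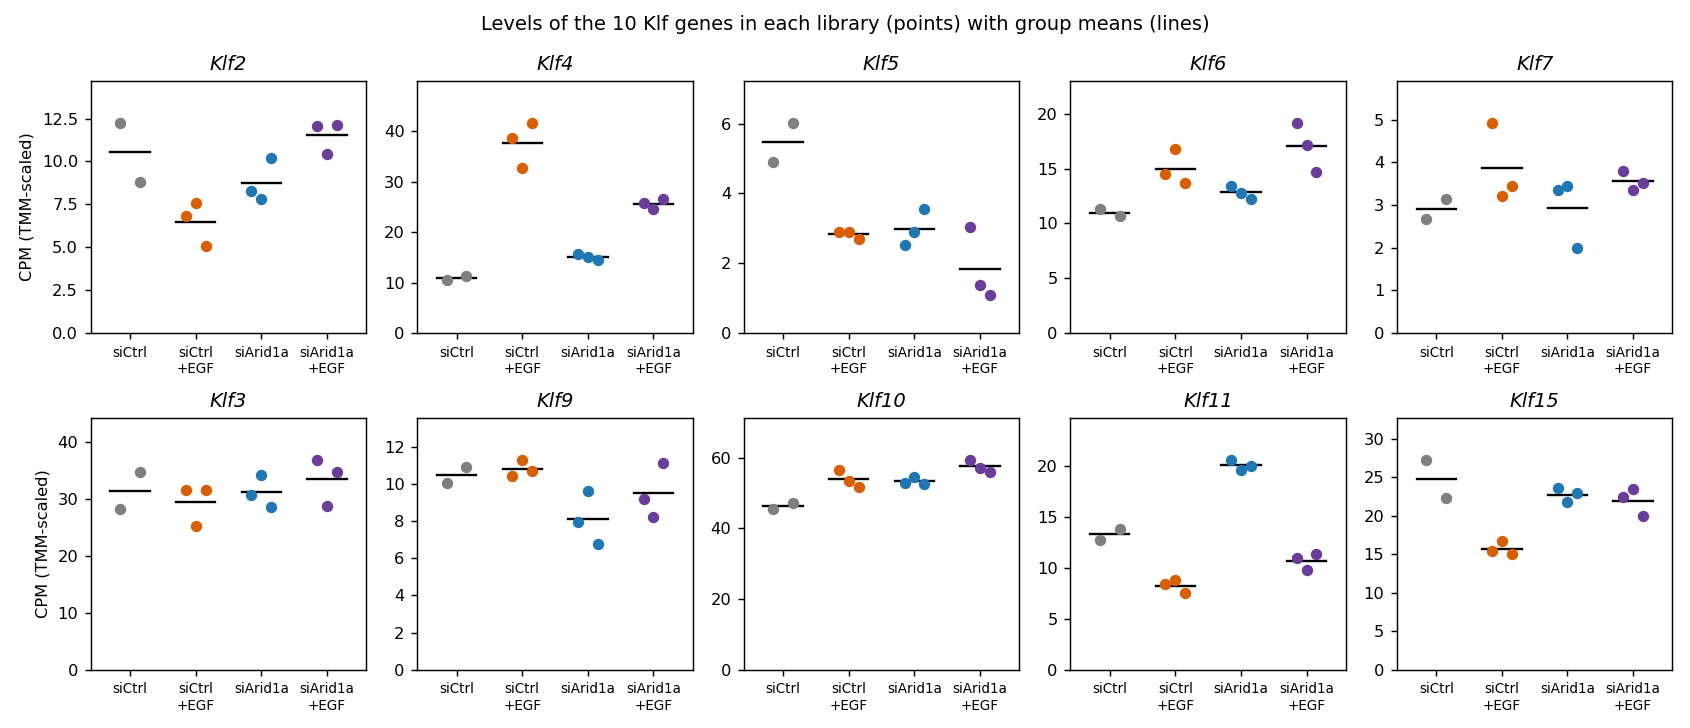
TMM-scaled CPM of the 10 genes in each of the 11 libraries (points) with group means (lines), each panel with its own linear axis from 0. Klf4 is highest in siCtrl_EGF at 32.7 to 41.7 CPM, Klf11 is highest in siArid1a at 19.6 to 20.6 CPM, and Klf2 is lowest in siCtrl_EGF at 5.07 to 7.59 CPM.

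Klf5, Klf6 and Klf7 make up the rest of the activators. Klf5, a growth-promoting factor of epithelial progenitors, had 13 to 97 reads per library. It lay at 4.91 and 6.02 CPM in siCtrl, at 2.90, 2.90 and 2.69 CPM in siCtrl_EGF, at 2.52, 2.89 and 3.57 CPM in siArid1a, and at 3.03, 1.39 and 1.09 CPM in siArid1a_EGF. Both siCtrl libraries lay above the other 9, and siArid1a_EGF replicate 1 lay apart from replicates 2 and 3. Klf5 fell with EGF after control siRNA (log2 -0.93 ± 0.26, edgeR adjusted p = 0.0114) and with the Arid1a siRNAs without EGF (-0.85 ± 0.26, adjusted p = 0.0182). The remaining changes of Klf5, -0.67 ± 0.29 for EGF after Arid1a siRNAs and -0.59 ± 0.29 for the Arid1a siRNAs with EGF, did not pass (adjusted p = 0.115 and 0.108).

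Klf6, a factor of wound responses and growth restraint, rose with EGF after either siRNA. It lay at 11.3 and 10.7 CPM in siCtrl, at 14.5, 16.8 and 13.7 CPM in siCtrl_EGF, at 13.4, 12.8 and 12.3 CPM in siArid1a, and at 19.2, 17.2 and 14.7 CPM in siArid1a_EGF. The libraries with EGF lay above those without it for each siRNA, and the 2 EGF groups overlapped. The log2 changes with EGF were 0.45 ± 0.13 (edgeR adjusted p = 0.0130) and 0.41 ± 0.11 (adjusted p = 0.0175), and the siRNAs gave 0.22 ± 0.13 without EGF and 0.18 ± 0.11 with EGF, which did not pass. Klf7, a factor of neurons and fat cells with 23 to 68 reads per library, ranged from 2.001 to 4.93 CPM over the 11 libraries and was called in no comparison. Its EGF change after control siRNA was 0.41 ± 0.23 (edgeR adjusted p = 0.191), with a 95% interval from -0.0891 to 0.913.

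Klf11, a SIN3A-binding repressor that has been linked to the insulin gene and diabetes, passed the test in all 4 comparisons between groups, in every alternative setting. It lay at 12.7 and 13.8 CPM in siCtrl, at 8.40, 8.76 and 7.53 CPM in siCtrl_EGF, at 20.6, 19.6 and 20.01 CPM in siArid1a, and at 10.9, 9.80 and 11.4 CPM in siArid1a_EGF. No group overlapped another: siCtrl_EGF was lowest, then siArid1a_EGF, siCtrl and siArid1a. EGF lowered it by log2 -0.68 ± 0.11 after control siRNA (edgeR adjusted p = 0.000248) and -0.91 ± 0.10 after Arid1a siRNAs (adjusted p = 1.38e-05). The Arid1a siRNAs raised it by 0.60 ± 0.10 without EGF (adjusted p = 0.000455) and 0.37 ± 0.11 with EGF (adjusted p = 0.00983). The 2 EGF responses differed by -0.23 ± 0.15, which did not pass (edgeR adjusted p = 0.720).

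Klf10, the close relative of Klf11, had small changes on a high level. It lay at 45.5 and 47.3 CPM in siCtrl, at 56.6, 53.4 and 51.7 CPM in siCtrl_EGF, at 52.9, 54.6 and 52.5 CPM in siArid1a, and at 59.4, 57.1 and 56.0 CPM in siArid1a_EGF. Both siCtrl libraries were below the other 9, and the siCtrl_EGF libraries overlapped those of both Arid1a groups. Klf10 rose by log2 0.22 ± 0.07 with EGF after control siRNA (edgeR adjusted p = 0.0213) and by 0.20 ± 0.07 with the Arid1a siRNAs without EGF (adjusted p = 0.0285), while EGF after Arid1a siRNAs gave 0.11 ± 0.06 and the siRNAs with EGF 0.09 ± 0.06, which did not pass. Klf9, a factor induced by thyroid hormone and glucocorticoids, ranged from 6.79 to 11.3 CPM and was called in no comparison. Its largest estimate was -0.35 ± 0.15 for the Arid1a siRNAs without EGF (edgeR adjusted p = 0.0862), where siArid1a (7.93, 9.58 and 6.79 CPM) lay below siCtrl (10.1 and 10.9 CPM).

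Klf15, which controls amino acid and glucose use in muscle and liver, stood lowest in siCtrl_EGF. It lay at 27.3 and 22.3 CPM in siCtrl, at 15.5, 16.7 and 14.99 CPM in siCtrl_EGF, at 23.6, 21.7 and 23.0 CPM in siArid1a, and at 22.4, 23.5 and 19.99 CPM in siArid1a_EGF. The 3 siCtrl_EGF libraries lay below the other 8, which overlapped among the remaining groups. EGF lowered Klf15 after control siRNA (log2 -0.66 ± 0.11, edgeR adjusted p = 0.000229), and after Arid1a siRNAs the change was -0.05 ± 0.10 (95% interval from -0.255 to 0.163, adjusted p = 0.786). The Arid1a siRNAs gave 0.48 ± 0.10 with EGF (adjusted p = 0.00116) and -0.13 ± 0.11 without EGF (adjusted p = 0.341). Klf3, the CtBP-binding repressor, ranged from 25.2 to 36.8 CPM over all libraries, with log2 changes of -0.09 ± 0.13 and 0.10 ± 0.12 for EGF after control and Arid1a siRNAs and 0.00 ± 0.13 and 0.19 ± 0.12 for the Arid1a siRNAs without and with EGF, none of which passed.

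The patterns of the 10 genes over the 11 libraries were compared by the root mean square difference of log2 CPM, each gene centred on its own mean. The closest members were Klf3 (25.2 to 36.8 CPM) and Klf10 (45.5 to 59.4 CPM) at 0.164, and Klf6 (10.7 to 19.2 CPM) and Klf10 at 0.165. The farthest were Klf4 and Klf5 (1.13) and Klf4 and Klf11 (1.09). These are descriptions over libraries that share depth and treatment, with no test. Among 9505 other genes, the nearest to Klf4 were Gulo (0.138), Egr1, an early response transcription factor gene (0.142), and Fhl3, which encodes a LIM-domain cofactor (0.144). The EGF responses of Gulo, Egr1 and Fhl3 differed between the siRNAs by log2 -0.84, -0.80 and -0.58 (edgeR adjusted p = 0.00668, 0.00187 and 0.110), values that their choice for nearness to Klf4 fixes in part. Nearest to Klf2 were Perp (0.201), Spsb2 (0.208) and Alox5 (0.229), and to Klf5 Tox3 (0.280), Piwil2 (0.311) and Marveld1 (0.312). Nearest to Klf11 were Tbc1d8 (0.123), Rnd2 (0.163) and Slc27a1 (0.165), and to Klf15 Btbd11 (0.0895), Pdgfa (0.0961) and Dedd2 (0.101). The members' own root mean square deviations were 0.662 (Klf4), 0.375 (Klf2), 0.630 (Klf5), 0.492 (Klf11) and 0.263 (Klf15). Of the genes nearest to Klf2, Alox5 was not called for EGF after control siRNA (edgeR adjusted p = 0.153). The EGF responses of Perp, Spsb2 and Alox5 had no called difference between the siRNAs (edgeR adjusted p = 0.160, 0.451 and 0.493).

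Of the 16 other genes of the KLF and SP family, 11 were tested, and Klf17, Sp5, Sp6, Sp7 and Sp9 had too few reads. EGF after control siRNA lowered Klf13 (log2 -0.44 ± 0.08, edgeR adjusted p = 0.000402) and Klf8 (-1.09 ± 0.39, adjusted p = 0.0412) and raised Klf16 (0.29 ± 0.07, adjusted p = 0.00506, lost at 0.0529 without siCtrl replicate 2). The call of Klf8 was lost in 9 of 18 settings, among them those without siCtrl replicate 2 (adjusted p = 0.332), siCtrl_EGF replicate 2 or 3, siArid1a replicate 1 or 2, and siArid1a_EGF replicate 1. The Arid1a siRNAs without EGF raised Klf1 (1.43 ± 0.46, adjusted p = 0.0236), which had at most 26 reads in a library, and lowered Sp2 (-0.20 ± 0.08, adjusted p = 0.0435). The call of Klf1 was lost in 5 of 18 settings, with limma-voom and without siCtrl replicate 1 or 2 or siArid1a replicate 1 or 2 (adjusted p up to 0.126). That of Sp2 was lost in 15 of 18 (adjusted p up to 0.160), among them all that leave out 1 library except siArid1a_EGF replicate 1 or 2. With EGF they raised 3 and lowered 3, among them Klf1 (1.70 ± 0.51, adjusted p = 0.0124, lost without siArid1a_EGF replicate 1 at 0.0756) and Sp1 (-0.25 ± 0.08, adjusted p = 0.0214, lost without siCtrl_EGF replicate 1 at 0.0850 and without siArid1a_EGF replicate 2 at 0.0963). Also called there were Klf13 and Klf8, both higher, and Sp2, lower. These calls were lost in 12 of 22, 12 of 20 and 12 of 22 settings (adjusted p up to 0.175, 0.165 and 0.148). EGF after Arid1a siRNAs raised Klf16 (0.30 ± 0.06, adjusted p = 0.00303) and lowered none, and no EGF response differed between the siRNAs at an edgeR adjusted p under 0.05 for any of the 11. So 3, 2, 6 and 1 of the 11 were called in these 4 comparisons, against 35.6%, 38.9%, 46.9% and 23.4% of all genes. Median log2 changes were -0.09, -0.20, -0.18 and -0.04, against -0.03, -0.01, 0.00 and -0.01 for all genes, which also serve for the lists that follow.

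All 19 cofactors, modifying enzymes and upstream factors of the family were tested. With EGF 2 were higher and 4 lower after control siRNA, and 2 were higher and 2 lower after Arid1a siRNAs, with median log2 changes of -0.10 and 0.02. Of all genes 16.8% were higher and 18.8% lower in the first of these comparisons, and 13% higher and 10.4% lower in the second. Fhl3 rose in both (log2 1.62 ± 0.11 and 1.05 ± 0.10, edgeR adjusted p = 8.47e-08 and 4.33e-06). With the Arid1a siRNAs 6 were lower and 0 higher without EGF, and 6 were lower and 1 higher with EGF, with medians of -0.09 and -0.04, against 20.1% of all genes lower and 18.8% higher without EGF and 23.2% lower and 23.7% higher with EGF. Mef2c, of the MEF2 factors that are known to drive Klf2 and Klf4, was lower by log2 -0.58 ± 0.07 (adjusted p = 2.3e-05) and -0.91 ± 0.07 (adjusted p = 8.07e-08), and Mapk7 (ERK5), the kinase that activates them, by -0.43 ± 0.06 and -0.25 ± 0.05 (adjusted p = 6.76e-05 and 0.00164). Neither passed for EGF after control siRNA or after Arid1a siRNAs, where Mef2c was called only with upper-quartile factors (log2 -0.21, edgeR adjusted p = 0.0337) and without siArid1a replicate 3 (-0.24, 0.0155). Mef2d, another MEF2 gene, was called higher with EGF after either siRNA, after control siRNA by log2 0.28 ± 0.09 (edgeR adjusted p = 0.0276). That call was lost without siCtrl replicate 1 (0.250) and without siCtrl_EGF replicate 1 or 3 (0.0841 and 0.0817). Mef2a did not pass with EGF after control siRNA (-0.13 ± 0.18, edgeR adjusted p = 0.613). With the Arid1a siRNAs and EGF, Mef2d was called only in the unplanned fit with the replicate block, as higher (log2 0.13, edgeR adjusted p = 0.0119). Where Mef2c and Mapk7 were lower, the log2 changes of Klf4 were 0.47 without EGF and -0.55 with EGF. Those of Klf2 were -0.29, which did not pass, and 0.82. The part of Mef2c and Mapk7 in these changes was not tested.

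Genes that have been ascribed to KLF2, KLF4, KLF5 and KLF6 as targets moved in both directions. Of 15 tested among 21, EGF raised 4 and lowered 6 after control siRNA and raised 4 and lowered 4 after Arid1a siRNAs, and the Arid1a siRNAs raised 4 and lowered 4 without EGF and raised 4 and lowered 2 with EGF, with medians of -0.13, -0.02, -0.01 and 0.16. The share of all genes called was 35.6%, 23.4%, 38.9% and 46.9% in that order. Thbd (thrombomodulin), an endothelial target of KLF2, fell with EGF after control siRNA by log2 -1.09 ± 0.14 and rose by 0.65 ± 0.14 with the Arid1a siRNAs and EGF (edgeR adjusted p = 3.14e-05 and 0.00126), as Klf2 did. It also fell with EGF after Arid1a siRNAs (-0.79 ± 0.12, adjusted p = 0.000301), where the change of Klf2 was 0.41, and it rose with the Arid1a siRNAs without EGF (0.35 ± 0.13, adjusted p = 0.0439), where that of Klf2 was -0.29. The last call of Thbd was lost in 8 of 18 settings (adjusted p up to 0.249), among them those without siCtrl replicate 2, siCtrl_EGF replicate 1 or 3, siArid1a replicate 2, and siArid1a_EGF replicate 1. Cdkn1a, the cell cycle inhibitor gene that KLF4 is known to activate, rose by 0.47 ± 0.10 and 0.78 ± 0.09 with EGF after control and Arid1a siRNAs (adjusted p = 0.00191 and 3.36e-05). Klf4 rose in both too, but by 1.78 and 0.77, with its smaller rise where that of Cdkn1a was larger. With the Arid1a siRNAs Cdkn1a fell without EGF (-0.32 ± 0.10, edgeR adjusted p = 0.0239), where Klf4 rose, and gave -0.01 ± 0.09 with EGF (adjusted p = 0.954), where Klf4 was lower. That fall was lost in 6 of 18 settings (adjusted p up to 0.105), among them those without siCtrl replicate 1 or 2 and siArid1a replicate 1 or 2. Cdh1, the E-cadherin gene ascribed to KLF4 and KLF6, rose with the Arid1a siRNAs without EGF and with it (log2 0.93 and 0.94, edgeR adjusted p = 7.09e-08 and 9.59e-09). With EGF after control siRNA Cdh1 was called lower (log2 -0.18 ± 0.06, edgeR adjusted p = 0.0282, lost in 6 of 18 settings). It was also called lower with EGF after Arid1a siRNAs, a call lost in 6 of 21 settings. Klf4 and Klf6 rose in both of these comparisons, and Klf4 was lower with the Arid1a siRNAs and EGF, where Cdh1 rose. The difference between the EGF responses was called for Cdkn1c (log2 0.48 ± 0.11, edgeR adjusted p = 0.0464). That call was lost in 13 of 17 settings, with adjusted p-values of 0.0573 to 0.142, among them the replicate block (0.105) and all that leave out 1 library except siArid1a replicate 3.

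Of 12 genes ascribed to KLF3, KLF9, KLF10, KLF11 and KLF15, 9 were tested. EGF after control siRNA lowered 2, Slc2a4, the insulin-responsive glucose transporter gene ascribed to KLF15 (log2 -2.31 at 0.514 against 2.70 CPM, edgeR adjusted p = 0.000112), and Smad7 (-0.43, adjusted p = 0.0137, lost without siCtrl replicate 1 at 0.0781 and without siCtrl_EGF replicate 3 at 0.0522). EGF after Arid1a siRNAs lowered Slc2a4 alone (-1.62, edgeR adjusted p = 0.00142). Klf15 fell with EGF after control siRNA too (log2 -0.66), but its change with EGF after Arid1a siRNAs was -0.05, which did not pass. The Arid1a siRNAs raised 3 and lowered 1 without EGF and raised 5 and lowered 1 with EGF, among them Bcat2, a branched-chain amino acid enzyme gene ascribed to KLF15 (log2 0.41 and 0.54, adjusted p = 0.00177 and 5.49e-05). Klf15 itself changed by log2 -0.13 without EGF, which did not pass, and by 0.48 with EGF. So 2, 1, 4 and 6 of the 9 were called, against 35.6%, 23.4%, 38.9% and 46.9% of all genes in that order of comparisons. The medians were -0.34, -0.05, 0.14 and 0.50, and none of the 9 had a called difference between the EGF responses.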

How the data were processed

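RNA was measured in 11 libraries, made with a TruSeq RNA v2 kit per the labels' protocols, a kit that keeps no strand information, so that antisense transcripts cannot be told from a gene's own. Per the submitters' processing notes, the authors used TopHat2 2.1.1, HTSeq 0.9.1, Cuffnorm 2.2.1.2 and Cuffdiff 2.2.1.5 with the build mm9; the gene annotation is not given in the sources used here. The deposited tables hold raw read counts per gene symbol, and a table of the series holds the authors' FPKM values, of which 9 columns were matched to groups and 3 control columns were not used, because the groups hold 2 control libraries.

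Counts were fitted with edgeR 4.0.16 (limma 3.58.1, R 4.3.3): filterByExpr (minimum count 10, minimum total 15; 57.3% of genes and 99.96% of reads kept), TMM factors, 4 group means over all 11 libraries, and the robust quasi-likelihood test with Benjamini-Hochberg adjustment over 13343 genes, two-sided, called under 0.05. The fit had 7 residual and 7.45 prior degrees of freedom and a biological coefficient of variation of 7.00%. Standard errors of log2 changes were derived as the absolute change divided by the square root of the test's F statistic. The 95% intervals rest on them. Total counts per library were 10279763 to 19773007, which leaves members with few reads (Klf5, Klf7) with wide intervals. The script was tested on simulated data. Libraries of a group were not copies of each other (chi-square per degree of freedom 1.57 to 10.9).

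The members and lists were chosen with earlier results of these data known. Named were all 10 members, Arid1a, up to 3 called members of each list with the smallest p in a comparison, and the 3 genes nearest to each member that EGF changed at least 1.5-fold after control siRNA (mean log2 CPM of at least 3). Other names of fewer than 6 genes, the ERK5 pathway, the targets Cdkn1a and Thbd across comparisons, and the MEF2 motif were added after values or sequences were seen. Promoters came from RefSeq (GRCm38.p6). Tested as alternatives were RLE and upper-quartile factors, no filter, DESeq2 1.42.0, limma-voom, only the groups compared, a replicate block, each library left out, and log2(FPKM + pseudocount) with limma. Replicate numbers come from the labels. Deviations from group means correlated over all 3 same-numbered pairs of siCtrl_EGF and siArid1a_EGF (0.14, 0.30 and 0.13), which met the criterion for pairing, and not over other groups. The block over those groups alone was not a planned setting.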

Additional observations from a re-analysis of the deposited data

Results flagged for a closer look

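Klf4 and Klf2 are listed here because a test of the difference itself found that their EGF responses differed between the control and Arid1a siRNAs. For Klf4 the log2 EGF response after Arid1a siRNAs minus that after control siRNA was -1.02 (edgeR adjusted p = 0.00559), as its EGF response was 1.70-fold after Arid1a siRNAs and 3.44-fold after control siRNA. For Klf2 it was 1.11 (edgeR adjusted p = 0.0464), as EGF lowered Klf2 after control siRNA in 3 of 3 libraries against both controls and gave a log2 change of 0.41 after Arid1a siRNAs that did not pass. The Klf2 call was lost in 11 of 17 alternative settings, and the Klf4 call in none of the 17.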

How the results depend on the processing

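Over the members' results under the alternatives, 922 values kept their side of the threshold, 30 lost a call, 8 gained one and no called change reversed. The number of members called for the difference between the EGF responses was 1 with RLE factors, with upper-quartile factors and with the replicate block over all libraries, against 2. With that block 56 genes were called for it in place of 126. Leaving out 1 library gave 55 to 153 such genes and 1 to 3 members, and 2 to 4 members for the Arid1a siRNAs without EGF. For the latter, the replicate block ended the call of Klf5 (log2 -0.81, edgeR adjusted p = 0.0611), and no filter on low counts or a fit of only the groups compared ended that of Klf10 (edgeR adjusted p = 0.0554 and 0.0855). The blocked fit of Klf2 for the difference between EGF responses gave log2 1.09 (edgeR adjusted p = 0.146), with RLE and upper-quartile factors 0.0544 and 0.0551. Upper-quartile factors turned 2505 higher and 2685 lower genes for the Arid1a siRNAs without EGF into 3129 and 2025. Over FPKM values with no filter Klf6 lost its call for EGF after Arid1a siRNAs (limma adjusted p = 0.0591). The cause of these losses was not tested. Fits that leave out a library have fewer samples, and the part of this in the losses was not tested either. The FPKM settings could be run only where both groups had matched columns, and the difference between EGF responses uses all groups in any case. In no other pair of groups did all same-numbered libraries correlate above 0.1. Klf5 and Klf7, with 13 to 97 and 23 to 68 reads per library, are limited by depth, and siCtrl by its 2 libraries.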

Other observations

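Genes of the glucocorticoid and circadian responses, which are known to control Klf9 and Klf15, were all tested (19). EGF after control siRNA raised 2 and lowered 5, and EGF after Arid1a siRNAs raised 2 and lowered 4, with median log2 changes of -0.16 and 0.05. Of all genes 16.8% were higher and 18.8% lower in the first of these comparisons, and 13% higher and 10.4% lower in the second. The kinase gene Sgk1, a glucocorticoid target, fell by log2 -1.18 ± 0.09 and -0.54 ± 0.08 (edgeR adjusted p = 1.42e-07 and 0.000131), and the 2 responses differed by 0.64 ± 0.11 (edgeR adjusted p = 0.0143, lost in 4 settings, among them the block at 0.0702, siCtrl replicate 1 left out at 0.0761, and siCtrl_EGF replicates 1 or 3 left out at 0.0553 and 0.0531). The Arid1a siRNAs raised 8 and lowered 3 without EGF and raised 10 and lowered 2 with EGF, with medians of 0.20 and 0.28, against 18.8% of all genes higher and 20.1% lower without EGF and 23.7% higher and 23.2% lower with EGF. The medians of all genes lay between -0.03 and 0.00. The clock genes Per2 and Tef rose without EGF (log2 0.85 and 0.40, edgeR adjusted p = 0.000262 and 0.000486) and with it (0.86 and 0.61, adjusted p = 5.01e-05 and 3.12e-06), whereas Fkbp5, another glucocorticoid target, fell (-0.53 and -0.44, adjusted p = 1.02e-05 and 1.41e-05).

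Of 18 ligands, receptors, Smad genes and response genes of TGF-beta, the pathway that gave Klf10 and Klf11 their first names, 17 were tested. EGF raised 7 and lowered 3 after control siRNA and raised 7 and lowered 0 after Arid1a siRNAs, with medians of 0.17 and 0.21, against the same shares of all genes as above for EGF (16.8% higher and 18.8% lower, and 13% higher and 10.4% lower). Tgfb1 rose by log2 0.74 and 0.97 (edgeR adjusted p = 1.89e-05 and 8.13e-07) and the corepressor gene Tgif1 by 1.08 and 0.87 (adjusted p = 5.63e-07 and 5.7e-06). The Arid1a siRNAs raised 3 and lowered 6 without EGF and raised 4 and lowered 6 with EGF, with medians of -0.16 and -0.19, against 18.8% higher and 20.1% lower and 23.7% higher and 23.2% lower of all genes. Bambi, a decoy receptor gene, fell by log2 -0.67 and -0.80 (edgeR adjusted p = 0.00208 and 0.000160) and Smad4 by -0.37 and -0.28 (adjusted p = 0.000299 and 0.000766). None of the 17 had a called difference between the EGF responses. Klf11 fell and Klf10 rose with EGF after control siRNA in the same libraries.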
